A study of Mus musculus with 3 samples.

Results

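Apolipoproteins, the protein coat of the particles that carry lipids in blood, and the proteins that load and remodel those particles were followed in mouse liver as a group of 10 genes, namely Apoa1, Apoa2, Apoa4, Apoa5, Apob, Apoc3, Apoe, Apom, Mttp and Lipc. The rule names the genes and uses no measured value, but the genes were chosen with earlier results of these data known. All probe sets whose platform annotation named only 1 of them were taken. By this rule 9 of the 10 genes were read through 16 probe sets, out of 18193 genes that the array read in this way, and Lipc, hepatic lipase, was not analysed here. Liver RNA was compared between a Control diet with 10% of energy as fat, a high-fat diet (HF) with 60%, and the high-fat diet with sodium ferrous citrate, an iron supplement, at 0.023% by weight (HF+SFC). All mice were male C57BL/6J, an inbred strain that gains weight on fat-rich food, and were fed from 6 weeks of age for 15 weeks by the study's methods. The sample labels state an age of 21 months, which does not match these times. The cDNA of all mice of a group was mixed and hybridised to 1 array, so that each group was 1 pool, the 3 arrays gave no replicate error, and neither a p-value nor a test between diets was possible.

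The liver makes most of the apolipoproteins of plasma. Very-low-density lipoprotein (VLDL) is built around a single molecule of apolipoprotein B, onto which the microsomal triglyceride transfer protein, encoded by Mttp, loads lipid in the endoplasmic reticulum, and the particle then leaves the cell and feeds muscle and fat with fatty acids. High-density lipoprotein (HDL) is built on apolipoproteins A-I and A-II and returns cholesterol to the liver. In a fatty liver, export of triglyceride on VLDL is among the routes by which the stored lipid can leave.

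The promoters of Apom, Mttp, Apoa4 and Apoa5 are shown because these were the genes that differed most between HF and Control. Each holds 250 bases before and 50 bases from the annotated start of transcription on, 5′ to 3′ on the strand of the gene, from RefSeq on build GRCm38.p6. Apom lies at chr17:35131752-35132051 on the minus strand, Mttp at chr3:138143369-138143668 on the minus strand, Apoa4 at chr9:46240594-46240893 on the plus strand, and Apoa5, of which the first of its entries is shown, at chr9:46268358-46268657 on the plus strand. Capitals mark every match, on either strand, to the motifs searched.
Apom: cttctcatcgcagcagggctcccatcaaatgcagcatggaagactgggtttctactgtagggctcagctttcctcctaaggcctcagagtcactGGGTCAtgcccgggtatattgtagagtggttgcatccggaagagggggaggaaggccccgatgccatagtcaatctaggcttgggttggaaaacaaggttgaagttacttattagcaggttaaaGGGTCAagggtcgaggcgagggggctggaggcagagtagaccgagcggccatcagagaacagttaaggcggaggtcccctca
Mttp: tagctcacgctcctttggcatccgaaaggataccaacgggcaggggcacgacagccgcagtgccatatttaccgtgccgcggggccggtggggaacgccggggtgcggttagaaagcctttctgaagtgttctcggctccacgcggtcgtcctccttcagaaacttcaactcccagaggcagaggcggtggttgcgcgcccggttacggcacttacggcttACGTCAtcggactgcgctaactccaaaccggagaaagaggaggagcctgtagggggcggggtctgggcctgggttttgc
Apoa4: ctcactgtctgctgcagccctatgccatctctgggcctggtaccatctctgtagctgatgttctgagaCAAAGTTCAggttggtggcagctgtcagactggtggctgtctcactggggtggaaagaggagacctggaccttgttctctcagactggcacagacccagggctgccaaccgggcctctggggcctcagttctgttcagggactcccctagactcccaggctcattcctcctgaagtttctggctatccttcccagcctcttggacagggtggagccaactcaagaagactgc
Apoa5: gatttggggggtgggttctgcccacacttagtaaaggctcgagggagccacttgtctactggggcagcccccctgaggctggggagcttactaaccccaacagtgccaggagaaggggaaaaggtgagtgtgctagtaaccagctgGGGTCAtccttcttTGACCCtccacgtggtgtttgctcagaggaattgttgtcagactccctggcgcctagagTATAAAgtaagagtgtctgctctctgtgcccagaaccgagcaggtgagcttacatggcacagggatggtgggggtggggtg

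The letters searched on both strands were TATAAA (a box often found just before a start), CAAAGTNCA (a core of the sites bound by HNF4A, a regulator of hepatocyte genes), AGGTCA and GGGTCA (cores of sites of nuclear receptors), GTTAAT (part of an HNF1 site), TGTTTAC (FOXA site) and TGACGT (part of a cAMP response element). GGGTCA and CAAAGTNCA were added after these promoters had been read, so their matches are no more than a description. The Apom promoter held GGGTCA at 2 places, with first bases at -156 and -32 from the start, and the Apoa5 promoter held it at 2 places, on opposite strands, with a TATAAA nearer to the start. GGGTCA occurred in 13.7% and TATAAA in 13.6% of the 32851 promoters of the table. The Apoa4 promoter held CAAAGTNCA, which 1.41% of all promoters held, and the Mttp promoter held TGACGT on the reverse strand, which 7.51% held. AGGTCA (held by 16.3% of all promoters), GTTAAT (by 7.10%) and TGTTTAC (by 3.65%) did not occur in the 4 windows shown. A match is no evidence that a factor binds, and AGGTCA and GGGTCA share all but their first letter, so that a place counts for only 1 of them.

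Each gene was read mainly by its brightest probe set, a set of short probes for 1 transcript, and values are MAS5 signals in the units of the array. The 3 arrays had been scaled to the same trimmed mean, with highest signals of 69903 to 76090.1. All 9 genes passed the level used for all genes, a mean signal of 76.9, which kept 11341 genes. Their brightest probe sets lay in the upper 10% of signals, and 7 of them in the upper 1%, at 15499 or more, where signals may be compressed. In place of a replicate error, the SD of log2 ratios between probe sets of a single gene in the upper 10% of signals was 0.13 (HF over Control), 0.11 (HF+SFC over HF) and 0.14 (HF+SFC over Control). A ratio beyond 2 such SDs is called beyond the probe set spread below, which is no measure of the spread between mice. In the upper 1% of signals that SD was narrower, at 0.07, 0.07 and 0.08 in the same order of comparisons. The spread used is therefore wide for the 7 genes there. Hepatocyte markers were bright, with 14 kept markers at 10144.2 or more on every array.

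**Figure D1:**
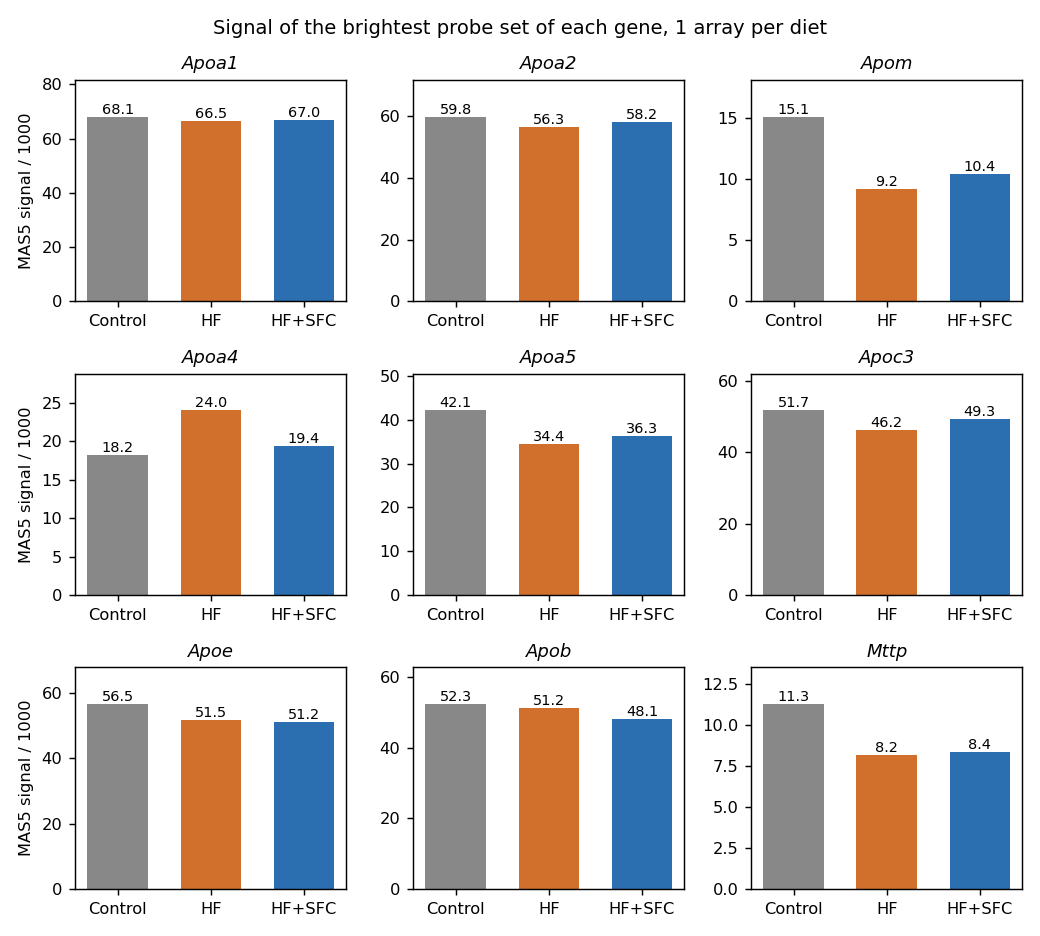
MAS5 signal, on a linear axis that starts at 0, of the brightest probe set of the 9 genes on the Control (grey), HF (orange) and HF+SFC (blue) array, with 1 pooled array per bar and therefore no error bar. Apom and Mttp stood lower on both high-fat arrays than in Control, and Apoa4 was highest in HF.

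HF was set against Control to describe the livers after fat-rich feeding. Apom was 1.64-fold lower in HF, alone among the 9 genes at or beyond the 1.5-fold size that the study used, Mttp was 1.38-fold lower and Apoa5 1.22-fold lower, whereas Apoa4 was 1.32-fold higher. Apoa1, Apoa2, Apob, Apoc3 and Apoe stayed within the probe set spread, although Apoc3 lay beyond 2 SDs of the upper 1% of signals. At 1.5-fold, 11.3% of all kept genes counted as higher and 5.84% as lower under HF, and among the 2865 genes in the upper 10% of signals the shares were 4.78% and 4.43%, beside 0 and 1 of the 9 genes. Of the 9 genes 4 lay beyond the probe set spread, where 35.0% of the genes in the upper 10% of signals did, so that the count is near that share. Ratios were narrower in the upper 1%, where 2 of 276 genes were higher and 6 lower at 1.5-fold, and no such share was computed there. The median log2 ratio of the 9 genes was -0.13, against 0.03 for all kept genes and -0.05 for those in the upper 10%. Since whole liver was measured, fewer cells of a type and less RNA per cell cannot be told apart.

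Supplemented mice were set against HF mice to describe the livers when iron was added to the fat-rich diet. Apoa4 was 1.24-fold lower in HF+SFC than in HF, the single member beyond the probe set spread, where 13.3% of genes of such signals were. None of the 9 genes reached 1.5-fold, beside 2.88% of all kept genes higher and 5.33% lower. Among the 2865 genes in the upper 10% of signals only 10 were higher and 11 lower, so that none is usual at such signals. The median of the 9 genes was 0.03, that of all kept genes -0.01 and that of the upper 10% 0.04. With HF+SFC against Control, 9.20% of all kept genes counted as higher at 1.5-fold and 6.88% as lower, and 0 of the 9 genes in either direction. Of the 2865 genes in the upper 10% of signals 142 were higher and 125 lower there. In that comparison Apom and Mttp lay beyond the probe set spread, as 32.9% of genes of such signals did. Apoa5, at -0.21, lay within it but beyond 2 SDs of the upper 1% of signals. The ratios HF over Control and HF+SFC over HF share the HF array, so no correlation between them is given, and a deviation of that array alone would move both in opposite directions.

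**Figure D2:**
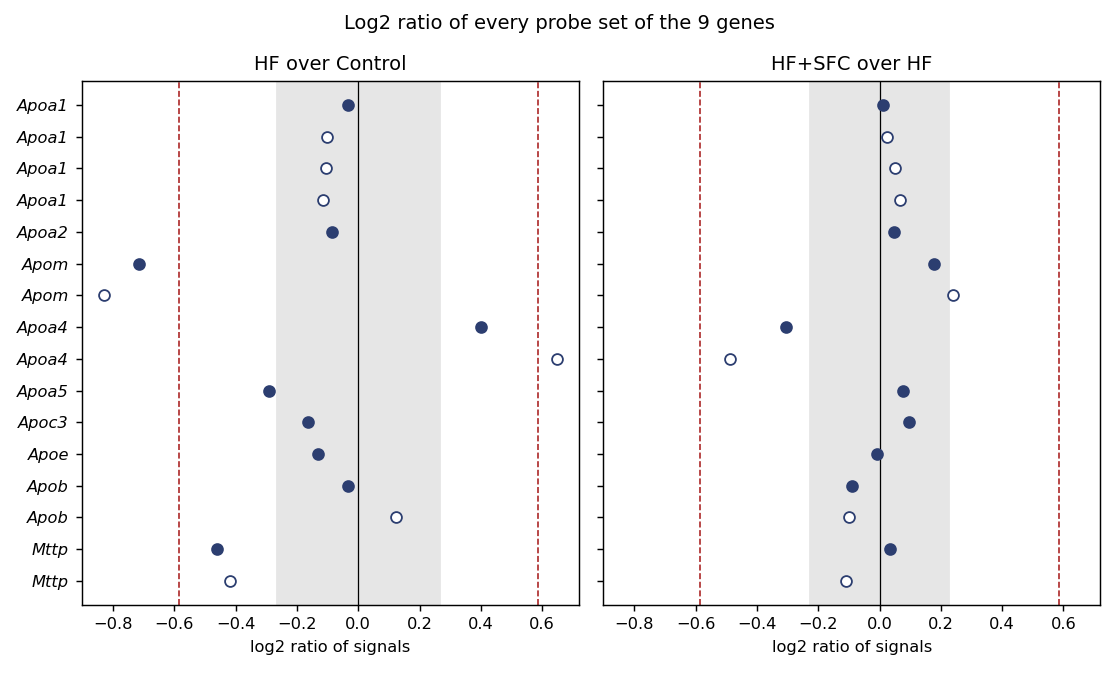
Log2 ratio of each of the 16 probe sets, HF over Control on the left and HF+SFC over HF on the right, with filled circles for the brightest probe set of a gene and open circles for its others. The grey band spans 2 SDs between probe sets of a gene to either side of 0 and the dashed lines mark 1.5-fold. Both probe sets of Apom and of Mttp lay left of the band in HF over Control, and both of Apoa4 lay right of it there and left of it in HF+SFC over HF.

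Apoa1 encodes the main structural protein of HDL. Its brightest probe set gave 68087.9 under Control, 66535.8 under HF and 67026 under HF+SFC. The log2 ratio of HF over Control was -0.03 and that of HF+SFC over HF 0.01. All 4 probe sets of Apoa1 lay between -0.12 and -0.03 in HF over Control, within the probe set spread. Apoa2, the second protein of HDL, was read by 1 probe set with signals of 59770.8, 56313.4 and 58199.8 in the same order of diets. HF over Control stood at -0.09 and HF+SFC over HF at 0.05, so that for both main HDL proteins the 3 arrays differed by less than the probe set spread.

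Apom encodes apolipoprotein M, a small member of HDL that carries the signalling lipid sphingosine-1-phosphate. Its signal was 15112.5 under Control, 9200.82 under HF and 10402.7 under HF+SFC. The second probe set, of lower signal, gave 10485.1, 5906.34 and 6980.55. Both stood highest in Control and lowest in HF, with HF+SFC nearer to HF. The log2 ratio of HF over Control was -0.72 by the brighter and -0.83 by the other probe set, and 77 of the 2865 genes in the upper 10% of signals had a lower one. In HF+SFC over HF the log2 ratios were 0.18 and 0.24, the second just beyond the probe set spread. Against Control, HF+SFC stood at -0.54 and -0.59 on the log2 scale, the brighter 1.45-fold lower.

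Apoa4, which is made in intestine and, in mice, also in liver and rides on triglyceride-rich particles and HDL, had the opposite order of diets. Its brightest probe set gave 18163.1 under Control, 23984.4 under HF and 19412.5 under HF+SFC. The other gave 13222.6, 20702.8 and 14756.2. HF was the highest array by both, and HF+SFC lay close to Control. The log2 ratio of HF over Control was 0.40 by the brightest probe set, whose suffix marks probes that may bind other transcripts, and 0.65 or 1.57-fold by the other. That of HF+SFC over HF was -0.31 and -0.49, with 1 of the 276 genes in the upper 1% lower than the brighter. Of 7 intestinal epithelium markers read, 2 were kept, Fabp2 at 0.74 and Lgals4 at -0.87 in HF over Control, and their part in the Apoa4 difference was not tested.

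Apoa5, which promotes hydrolysis of plasma triglyceride and lies next to Apoa4 on the chromosome, gave 42125.6 under Control, 34438.1 under HF and 36308.3 under HF+SFC. Control was the highest array and HF the lowest. The log2 ratio was -0.29 for HF over Control, just beyond the probe set spread, 0.08 for HF+SFC over HF and -0.21 for HF+SFC over Control. Apoc3, an inhibitor of that hydrolysis and of particle clearance, gave 51747.9, 46152 and 49338.9, a log2 ratio of HF over Control of -0.17 and one of HF+SFC over HF of 0.10. Apoe, the ligand by which remnant particles are taken up, gave 56475.8, 51530.3 and 51203, with log2 ratios of -0.13 and -0.01. Both genes had 1 probe set and stayed within the spread, although Apoc3 in HF over Control lay beyond 2 SDs of the upper 1% of signals. Macrophages also express Apoe, and all 23 kept macrophage markers were above 0 in HF over Control. Under quantile normalization, median centring and lowess 22 of the 23 were. Their summed signals were 29989.1 under Control, 41828.1 under HF and 30212.1 under HF+SFC, and their part in the Apoe values was not tested.

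The order along chromosome 9 in RefSeq is Apoa1, Apoc3, Apoa4 and Apoa5. In HF over Control these 4 neighbours stood at -0.03, -0.17, 0.40 and -0.29 on the log2 scale, so that Apoa4 went against both genes beside it. Of those, Apoc3 lay within the probe set spread, at -0.26 to -0.03 under the alternatives. Between HF+SFC and HF the 4 neighbours stood at 0.01, 0.10, -0.31 and 0.08. On chromosome 7 the order is Apoc2, Apoc4, Apoc1 and Apoe, and HF over Control gave 0.33, -0.05, -0.07 and -0.13. Apoc2 encodes an activator of lipoprotein lipase.

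Apob encodes the core protein of VLDL. Its brightest probe set gave 52320.7 under Control, 51177.9 under HF and 48082.1 under HF+SFC, and the dimmer one 6651.1, 7245.23 and 6759.82. The 3 arrays were close together by both. The log2 ratios of HF over Control were -0.03 and 0.12 and those of HF+SFC over HF -0.09 and -0.10, all within the spread.

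Mttp, which loads lipid onto that core, gave 11286 under Control, 8194.58 under HF and 8395.45 under HF+SFC. Its second probe set gave 5365.81, 4015.42 and 3725.22. By both, Control was the highest array and the high-fat arrays lay together below it. The log2 ratio of HF over Control was -0.46 and -0.42, and 206 of the 2865 genes in the upper 10% of signals had a lower one than the brighter. HF+SFC over HF gave 0.03 and -0.11, without a shared direction, and HF+SFC over Control gave -0.43 and -0.53. Core protein and lipid loading protein of VLDL thus had brightest values of -0.03 and -0.46 in HF over Control. The brightest Apob probe set lay in the upper 1% of signals, where signals may be compressed, and that of Mttp did not. The dimmer Apob probe set stood at 0.12.

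**Figure D3:**
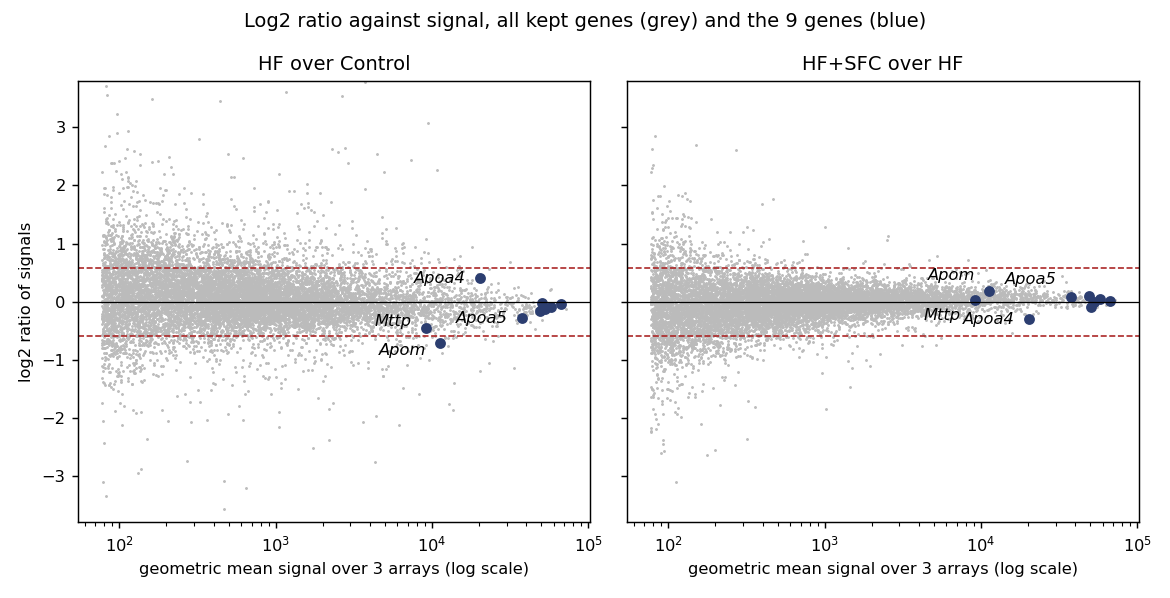
Log2 ratio against geometric mean signal over the 3 arrays (log axis) for all kept genes in grey and the 9 genes in blue, with dashed lines at 1.5-fold. The few genes beyond the vertical range are not drawn. Ratios of bright genes were narrower than those of dim ones, and Apom lay below the lower line in HF over Control.

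The direction of small ratios depended on the scaling. Under lowess scaling Apoa1, Apoa2, Apob and Apoe were no longer below 0 in HF over Control. Under quantile normalization Apoa1, Apob and Apoe were not below 0. Apom, Mttp, Apoa5 and Apoc3 stayed below 0 and Apoa4 above 0 in that comparison in every alternative run, Apoc3 at -0.26 to -0.03. In HF+SFC over HF 6 of the 9 genes were above 0 and 3 below with the deposited scaling. These counts became 4 and 4 under quantile normalization, 8 and 1 under median centring and 3 and 6 under lowess. Apoa1 and Mttp were no longer above 0 under quantile normalization, nor were Apoa1, Apoa2 and Mttp under lowess. Median centring put Apob and Apoe above 0. Lower ratios were also usual at these signals, as the median of the 276 genes in the upper 1% was -0.09 in HF over Control. The 14 kept hepatocyte markers were all below 0 there, at a median of -0.14, with summed signals of 573182 under Control, 507501 under HF and 525915 under HF+SFC. Under quantile normalization 9 and under lowess 8 of these 14 markers were below 0. Markers of stellate cells and matrix were at least 1.5-fold higher in HF over Control in 10 of 16, beside 11.3% of all kept genes. The part of such shifts between cell types in the values of the 9 genes was not tested.

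Counts in this and the following lists stand beside 11.3% of all kept genes higher and 5.84% lower at 1.5-fold in HF over Control. In HF+SFC over HF these shares were 2.88% and 5.33%. The list of other apolipoproteins also held related genes, among them Apool, Apobr, Pon1 and Pon3. Its counts are therefore not of apolipoproteins alone. Its values were mostly small with a few larger ones. Of 14 kept, 4 counted as higher at 1.5-fold under HF and 0 as lower, with 3 higher under quantile normalization and lowess and 2 under median centring. Their median of -0.06 turned to 0.07 under quantile normalization and to 0.06 under lowess. Apol7a stood at 0.85, Saa4, an HDL protein of the serum amyloid family, at 0.74, and the mitochondrial Apool and the receptor Apobr at 0.61 each. By their other probe sets Apool stood at 0.48, below 1.5-fold, and Saa4 at 1.08. Apobr was dim, with signals of 120.858 under Control, 183.867 under HF and 139.892 under HF+SFC. Apoc2 went from 15022.1 in Control to 18826.1 in HF and 17233.8 in HF+SFC, and Apof stood at -0.09 in HF over Control. Between HF+SFC and HF none of the 14 reached 1.5-fold and the median was 0.06.

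Of 30 kept genes of lipoprotein assembly and secretion, 0 were higher and 1 was lower in HF at 1.5-fold (3 under median centring), with a median of -0.13. The lower gene was Plin2, the coat protein of lipid droplets, at 39601 under Control, 19024.7 under HF and 16696.5 under HF+SFC (log2 ratio of HF over Control -1.06). Hspa5, a chaperone of the endoplasmic reticulum, stood at -0.51, with its 3 probe sets between -0.60 and -0.24. Tor1aip1, a nuclear membrane protein, stood at -0.58 (-0.06 by its other probe set), and Tm6sf2, which takes part in lipid loading of VLDL, at 0.28. Between HF+SFC and HF no gene of this list reached 1.5-fold and the median was -0.01, or 0.11 under median centring. Of 9 kept receptors and uptake genes 1 was higher and 0 were lower in HF at 1.5-fold, with a median of -0.11. The higher gene was Vldlr, the VLDL receptor, at 1.86 by its brightest probe set and 0.84 by the other. Its brightest probe set was dim, with signals of 117.897, 427.272 and 278.975. With HF+SFC against HF it stood at -0.62 by the brightest and 0.08 by the other probe set, without a shared direction, and 0 of the 9 genes counted as lower there under quantile normalization, median centring, lowess or the median over probe sets. Median centring also made 1 of the 9 count as lower under HF. The HDL receptor Scarb1 stood at -0.16 in HF over Control, with its 3 probe sets between -0.16 and 0.09, and Sdc1, which binds remnants, at -0.52.

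Of 12 kept genes of plasma lipases and remodelling, 2 were higher in HF and 1 lower at 1.5-fold, with a median of 0.23. Lpl, lipoprotein lipase, stood at 0.76 and Abcg1, a cholesterol exporter, at 0.79 (0.21 by its other probe set). With HF+SFC against HF, Lpl stood at -0.60 by the brightest and -0.99 by its other probe set, whereas Abcg1 stood at -0.63 and 0.09, without a shared direction. The 2 genes counted as lower there became 0 under median centring and 1 with the median over probe sets, and with that median 1 gene in place of 2 counted as higher under HF. Lpl and Abcg1 are also expressed in macrophages, whose 23 kept markers had a median of 0.50 in HF over Control and of -0.46 in HF+SFC over HF, and their part in these values was not tested. Angptl4, an inhibitor of lipoprotein lipase, was lower in HF at -0.69 and stood at -0.04 in HF+SFC over HF. Lcat, which esterifies cholesterol on HDL, stood at -0.21 in HF over Control. Pltp, which moves phospholipid between particles, stood there at 0.33 by its brightest and 0.14 by its other probe set.

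Of 23 kept regulators of apolipoprotein genes, 2 counted as higher and 5 as lower at 1.5-fold under HF, with a median of -0.27. Those lower were Foxa1 at -1.19, Foxa2 at -0.89, Foxa3 at -0.62, Hnf4a at -0.61 and Creb3l3 at -0.59, all regulators of liver genes. Foxa3 was named after its value had been seen. Under quantile normalization and under lowess 3 were lower at 1.5-fold, and the 4 probe sets of Hnf4a ranged from -0.61 to -0.24. Those higher were the lipogenic regulators Srebf1, at 1.27, and Pparg, whose signals were 84.9 under Control, 388.464 under HF and 325.277 under HF+SFC. The Control signal of Pparg was close to the median of that array, 81.7, so that no ratio is given. Ppara, which drives fatty acid oxidation, stood at -0.28, the bile acid receptor Nr1h4 at 0.37 and the sterol receptor Nr1h3 at 0.01. In HF+SFC over HF none of the 23 reached 1.5-fold and the median was 0.11.

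**Figure D4:**
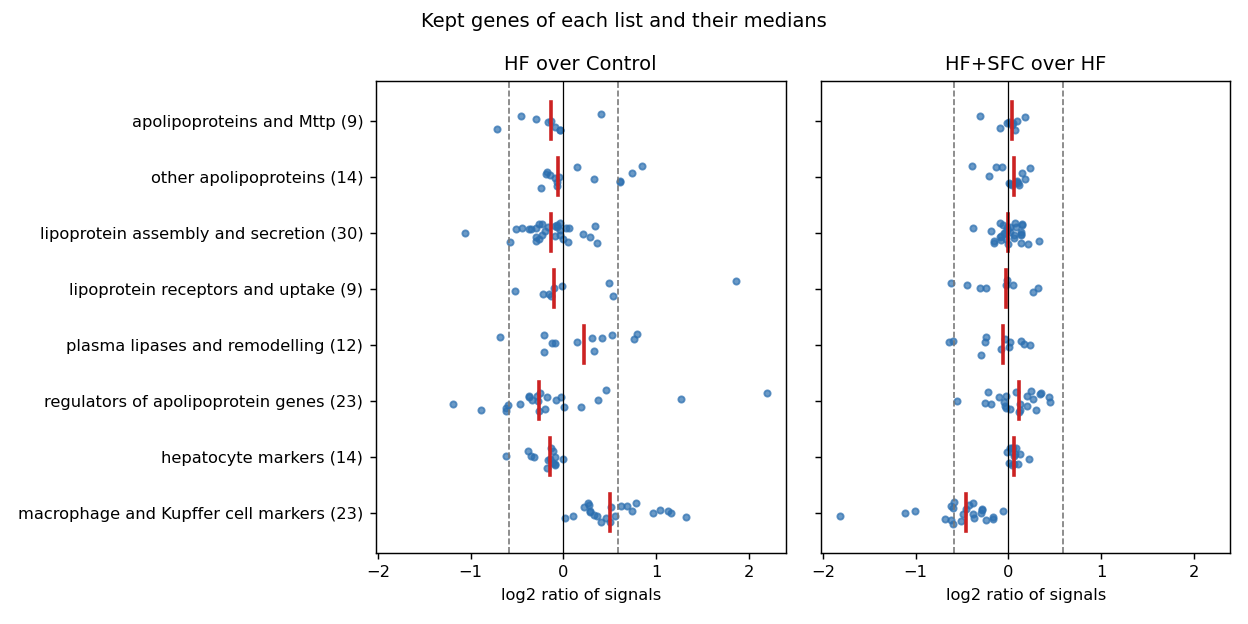
Log2 ratios of the kept genes of each list (points, number kept in parentheses) and their median (red bar), HF over Control on the left and HF+SFC over HF on the right, with dashed lines at 1.5-fold. The apolipoproteins and Mttp were centred at -0.13 in HF over Control, the regulators at -0.27 and the macrophage markers at 0.50.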

How the data were processed

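Affymetrix arrays of mouse liver, 1 pooled array for each of 3 diets, were read with the probe names of the platform annotation. The deposited values are MAS5 signal intensities that the authors had scaled to a common target, so that the trimmed mean (2%) was 500.004 on each array. No version of MAS5 is stated in the sources. Of 45101 probe sets, 64 controls were left out, 34945 gave 1 gene name, 932 gave several, and 9160 had no entry.

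Log2 ratios of 2 arrays were computed with Python 3.11.15, numpy 2.4.6 and pandas 2.3.3. A gene was read by the probe set with its highest mean log2 signal where that lay in the upper 50%. Depth does not apply to arrays, and their number limits the precision. Every member was named. Of each other list, up to 4 kept genes with the largest ratios were named, besides genes picked for their function. Members and lists were chosen with earlier results of these data known. Alternatives were quantile normalization, median centring, lowess (fraction 0.3), no filter, the upper 25%, a floor, a pseudocount of 16, the median over probe sets, no suffixed probe sets and 2-fold. The steps were tested on simulated data. RefSeq supplied gene order and promoters (9 of 10 members had one).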

Additional observations from a re-analysis of the deposited data

How the results depend on the processing

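Of 234 log2 ratios of single genes under the alternatives, 219 moved by less than 1 SD between probe sets of a gene and 15 moved further, 21 turned in sign or became 0, and none at or beyond 1.5-fold turned. Apom in HF over Control ranged from -0.83 to -0.61, Mttp from -0.56 to -0.38, Apoa5 from -0.39 to -0.16 and Apoa4 from 0.31 to 0.65, and Apoa4 in HF+SFC over HF ranged from -0.49 to -0.19. The median of the genes in HF over Control was -0.0355 under quantile normalization, -0.23 under median centring, 0.00326 under lowess and -0.23 without suffixed probe sets. In HF+SFC over HF it was 0.15 under median centring and -0.0308 under lowess. In HF+SFC over Control it was -0.0227 under quantile normalization, -0.0637 under lowess, -0.0688 with the median over probe sets and -0.17 without suffixed probe sets. Without suffixed probe sets 6 genes were read, without Apoa1, Apoa2 and Apoe, and 1 (Apoa4) was at least 1.5-fold higher in HF over Control and 1 (Apom) lower in HF+SFC over Control. At 2-fold 0 genes were lower in HF. The median over all kept genes in HF+SFC over HF was -0.01, and 0.11 after median centring. Without the filter 3699 of 18193 genes were higher and 2755 lower in HF at 1.5-fold, and in the upper 25% of signal 444 and 283 of 6834. No paired analysis was possible because each group had 1 array. With pooled material the spread between mice is unknown, and signals in the upper 1% may be compressed.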

Other observations

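The 5 genes whose pair of log2 ratios, HF over Control and HF+SFC over HF, was nearest to that of Apom over the 3 arrays, by Euclidean distance among 6833 genes in the upper 25% of signal, were Fam120aos (distance 0.035), Bcl2l13, Yrdc, Ero1b and Plekhb1. Ero1b, an oxidase of the endoplasmic reticulum, gave 4399.63 under Control, 2787.55 under HF and 3118.65 under HF+SFC. Bcl2l13, a mitochondrial member of the BCL2 family, gave 1231.37, 749.754 and 825.662. Both had Control as the highest and HF as the lowest array, as Apom did. The pattern of these genes was chosen for its likeness and carries no test.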
